A study of Mus musculus with 42 samples.

Results

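The autophagy machinery comprises the proteins that build the autophagosome, load it with cargo and fuse it with the lysosome. For the sorted microglia described here, 44 such genes were taken by name from the 19151 genes of the deposited expression table. They were every gene whose symbol starts with Atg followed by a digit, together with a list of named partners of the same machinery, and all 44 were present. By role they fell into 5 genes of the initiation complex, 7 of the PI3-kinase complexes, 8 of lipid supply and membrane growth, 11 of the conjugation system, 5 of the Atg8 family, 4 cargo receptors and 4 genes of fusion with the lysosome. Of these, 42 passed the filter for low values, a mean of at least 7 in 1 or more groups, and were tested with 14910 genes in all. Atg9b, a paralogue of the membrane protein Atg9a, and Calcoco2, a cargo receptor, stayed below it. Their values ran from 6.10 to 7.41 and from 6.01 to 6.65 over all libraries.

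Autophagy starts when the Ulk1 kinase complex and the Vps34 lipid kinase mark a patch of membrane, which then grows with lipid carried by Atg2 and scrambled by Atg9a. An enzyme cascade like that of ubiquitin joins Atg8 proteins such as LC3 to the membrane lipid, and receptors tether ubiquitin-tagged cargo to them. Syntaxin 17 and tethering factors join the closed vesicle to the lysosome. In microglia, parts of the same machinery also attach LC3 to phagosomes, and the pathway is studied there for the handling of protein aggregates and damaged organelles.

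The libraries came from brain microglia of male APP/PS1 mice, which carry human APP and presenilin 1 transgenes and deposit amyloid, and of wild-type (WT) mice of the same age on the C57BL/6 background. Cells positive for CD11b and CD45 were fixed, stained in the nucleus for the proliferation antigen Ki67 and sorted into Ki67+ and Ki67- pools of up to 400 cells per library. The 4-month mice gave 5 Ki67- and 5 Ki67+ libraries in WT and 4 of each state in APP/PS1. The 6-month mice gave 3 Ki67- and 2 Ki67+ libraries in WT and 2 of each in APP/PS1, and the 12-month mice 3 Ki67- and 4 Ki67+ libraries in WT and 4 of each in APP/PS1. Each value is a normalised expression value on a log2 scale from which the authors had removed 10 surrogate variables, so a difference of 1 is a doubling of the value, and low values are compressed. Depth per library is unknown, and values were not scaled to gene length, so levels are compared between groups and never between genes. The labels do not say that libraries are separate mice, so p-values measure the spread between these libraries, which may be technical.

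Several libraries stood apart. The 3 libraries of 12-month WT Ki67- microglia were nearly identical, with a median SD of 0.030 over the tested autophagy genes against 0.190 to 0.465 in the other 11 groups. Libraries 1 and 2 of 4-month WT Ki67- microglia differed by a median of 0.0215 over all tested genes, while other pairs reached 0.407. Counts that rest on the first group are given below with its libraries also counted as 1. For this and the other alternative fits, the share of all genes that passed was not counted. Microglial markers were high in all libraries, with a mean over 8 genes of 12.43 to 13.85 in Ki67+ and 13.19 to 14.06 in Ki67- libraries, and 5 of the 8 were lower in Ki67+ pools. The 5 astrocyte markers were all higher in Ki67+ libraries, with a list mean of 8.45 to 11.19 against 6.86 to 8.07. Of the other marker lists, 4 of 7 neuronal genes were higher and 1 lower in Ki67+ pools, 3 of 6 oligodendrocyte genes and 1 of 4 tested peripheral immune genes were higher, and 1 of 4 endothelial genes was higher and 1 lower. Cd3e, a T cell marker, was below the filter, and 2 of 6 proliferation genes (33.3%) were higher in Ki67+ pools. In this comparison, averaged over genotype and age, 34.5% of all tested genes were higher and 29.7% lower. The share of proliferation genes was thus near that of all genes. In 12-month WT mice the proliferation genes did not follow the sort, with 1 of 6 higher and 3 lower in Ki67+ libraries (46.3% of all genes passed). Their list means were 8.24 and 8.27 in the pools labelled Ki67+ and Ki67-. At 6 months these list means were also close, 8.09 and 7.92 in WT and 7.98 and 7.86 in APP/PS1 mice, and the ranges of the pools overlapped. In pooled cells, fewer cells with a transcript and less of it per cell cannot be told apart.

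**Figure D1:**
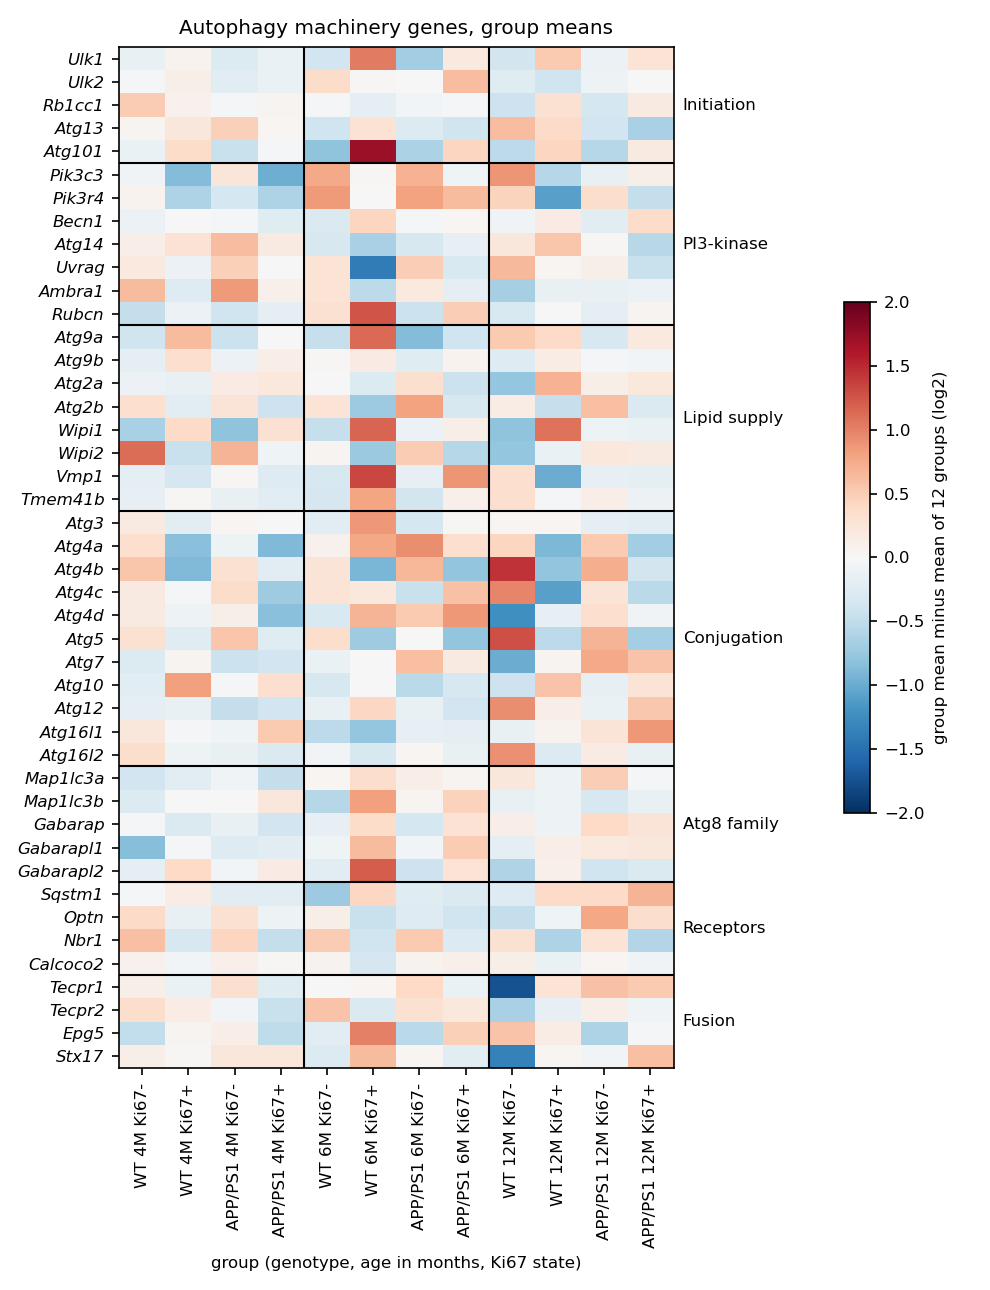
Each row is 1 of the 44 genes, ordered by role, and each column is 1 of the 12 groups by age (M, months), genotype and Ki67 state. Colour gives the group mean minus the mean over the 12 groups on the log2 scale. The columns of 6-month WT Ki67+ and 12-month WT Ki67- microglia hold the strongest colours, and the rows of Atg4b and Nbr1 alternate with Ki67 state throughout.

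The first question of the design was how Ki67+ microglia differ from Ki67- microglia. Averaged over the 6 combinations of genotype and age, 11 autophagy genes were higher and 12 were lower in Ki67+ microglia, 23 of 42 (54.8%), by limma with Benjamini-Hochberg adjustment at an FDR of 0.05. Among all tested genes 64.2% passed, 34.5% higher and 29.7% lower, so a call was no more frequent among autophagy genes than among all genes, and their median log2 difference was 0.10 against 0.04 for all genes. For 0 of the 42 genes did all Ki67+ libraries lie apart from all Ki67- libraries, as they did for 2.04% of all genes. Lower values were most frequent among the PI3-kinase genes (4 lower, 1 higher of 7) and the conjugation genes (5 lower, 1 higher of 11). In the initiation complex 2 of 5, in the Atg8 family 2 of 5 and in the fusion group 2 of 4 were higher and 0 lower. Lipid supply had 2 higher and 2 lower of 7 tested, and the receptors 1 and 1 of 3. The median log2 differences of these groups ran from -0.38 for PI3-kinase genes to 0.41 for the Atg8 family.

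Atg4b, the protease that trims LC3 and its relatives before conjugation and releases them afterwards, had the largest difference. Its gene lies on chromosome 1, 93751500 to 93790610 on the plus strand of GRCm38. Its values ran from 6.92 to 8.95 with a median of 8.18 in the 21 Ki67+ libraries, and from 8.54 to 10.20 with a median of 9.22 in the 21 Ki67- libraries. The ranges overlapped between 8.54 and 8.95, and the averaged log2 difference was -1.32 ± 0.13 (SE, limma adjusted p = 3.82e-09). It was negative in 6 of 6 strata, from -2.23 to -0.51, and passed the test in 5 of them. The exception was APP/PS1 at 4 months. The 6-month calls were the least secure: in WT mice the call was lost without Ki67+ library 2 (adjusted p = 0.211) or Ki67- library 1 (0.0829), and in APP/PS1 mice without any of the 4 libraries (0.0571 to 0.205).

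Nbr1, a receptor that binds ubiquitin and LC3 and lies on chromosome 11, 101552149 to 101581951, was the most even of the genes that fell. Ki67+ libraries lay between 8.20 and 9.0 (median 8.58) and Ki67- libraries between 8.85 and 10.12 (median 9.52). The averaged difference was -0.88 ± 0.11 (SE, limma adjusted p = 2.20e-07). Within the strata it stayed between -0.93 and -0.79, and the test was passed in 5 of 6, all but APP/PS1 at 6 months (adjusted p = 0.172). The call in WT mice at 6 months was lost without either Ki67+ library or Ki67- library 1 (adjusted p = 0.0537 to 0.159) or with the 6-month libraries fitted alone (0.0772), and that in APP/PS1 mice at 12 months without Ki67- library 1 (0.0679). The other receptors differed from it: Sqstm1, which encodes the ubiquitin receptor p62, was higher in Ki67+ microglia by 0.37 ± 0.09 (adjusted p = 6.47e-04), and Optn, optineurin, gave -0.28 ± 0.19 (adjusted p = 0.205). Sqstm1 ranged from 10.71 to 12.01 in Ki67+ and from 10.39 to 11.82 in Ki67- libraries, so its ranges overlapped widely. Its difference was positive in 4 of 6 strata, from -0.05 to 1.15 over all 6, and passed the test in 2.

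Other conjugation genes went the way of Atg4b. Atg5, which receives Atg12 to form the ligase for LC3, ran from 7.65 to 9.47 (median 8.34) in Ki67+ and from 8.79 to 10.36 (median 9.36) in Ki67- libraries, a difference of -1.06 ± 0.18 (adjusted p = 1.01e-05). The proteases Atg4a and Atg4c were lower by -0.73 and -0.54, and Atg16l2, a relative of the scaffold Atg16l1, by -0.43. Atg4d, the remaining protease of the family, gave 0.13 ± 0.15 (adjusted p = 0.451). Atg10, the enzyme that transfers Atg12 to Atg5, was the only conjugation gene of the 11 that was higher, by 0.57 ± 0.17 (limma adjusted p = 0.00602). Atg3, Atg7, Atg12 and Atg16l1 had differences of 0.06 to 0.16 that did not pass. Transcript sequence shared with other genes touches Atg4a in particular, since 60.8% of its 31-base words also occur elsewhere. More of them occur in the pseudogene Atg4a-ps than in any other gene, and the values of Atg4a are uncertain to that extent. In all, 14 members shared more than 5% of these words with other genes, among them Becn1 (40.0%), Gabarapl1 (25.2%), Uvrag (19.3%), Atg4d (16.5%), Sqstm1 (16.4%) and Gabarapl2 (15.3%).

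The lipid kinase genes were lower in most cases. Pik3r4, the regulatory subunit Vps15, ran from 7.25 to 9.23 (median 7.91) in Ki67+ and from 7.87 to 9.58 (median 8.79) in Ki67- libraries, with a difference of -0.72 ± 0.11 (adjusted p = 4.73e-06) that was negative in 6 of 6 strata. Pik3c3, the catalytic subunit Vps34, ran from 6.78 to 8.83 and from 7.76 to 9.53, a difference of -0.78 ± 0.14 (adjusted p = 3.03e-05). The difference of Pik3c3 was negative in 5 of 6 strata and passed in 3, and it was 0.27 in APP/PS1 mice at 12 months. Uvrag, which takes part in the Vps34 complex of late steps, was lower by -0.74 and Ambra1, a scaffold that ties Beclin 1 to the initiation complex, by -0.38. Rubcn, which encodes the inhibitor Rubicon, was higher by 0.50 ± 0.15 (adjusted p = 0.00625), but not without the 6-month strata (0.149). Becn1, Beclin 1, and Atg14, the subunit that directs Vps34 to early autophagosomes, gave 0.25 and -0.11 and did not pass.

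In the initiation complex and the lipid supply group the largest differences were upward. Atg101, which stabilises Atg13, ran from 8.16 to 10.78 (median 9.02) in Ki67+ and from 6.36 to 9.80 (median 8.22) in Ki67- libraries, a difference of 1.03 ± 0.21 (adjusted p = 1.13e-04). The kinase gene Ulk1 was higher by 0.66 ± 0.13 (adjusted p = 1.36e-04), while Ulk2, Rb1cc1 and Atg13 gave -0.03 to 0.14. Wipi1 and Wipi2 encode related proteins that read the lipid made by Vps34, and on average they moved in opposite directions. Wipi1 ran from 7.39 to 9.35 (median 8.27) in Ki67+ and from 6.62 to 8.56 (median 7.42) in Ki67- libraries and was higher by 0.98 ± 0.13 (adjusted p = 2.91e-07). Wipi2 ran from 7.87 to 9.65 (median 8.78) and from 8.15 to 10.25 (median 9.40) and was lower by -0.60 ± 0.13 (adjusted p = 2.49e-04). The lipid transfer genes were split as well, with Atg2b lower by -0.80 ± 0.14 (adjusted p = 1.17e-05) and Atg2a at 0.09 ± 0.12 (adjusted p = 0.545). Atg9a, the scramblase of the vesicles that seed the membrane, was higher by 0.65.

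**Figure D2:**
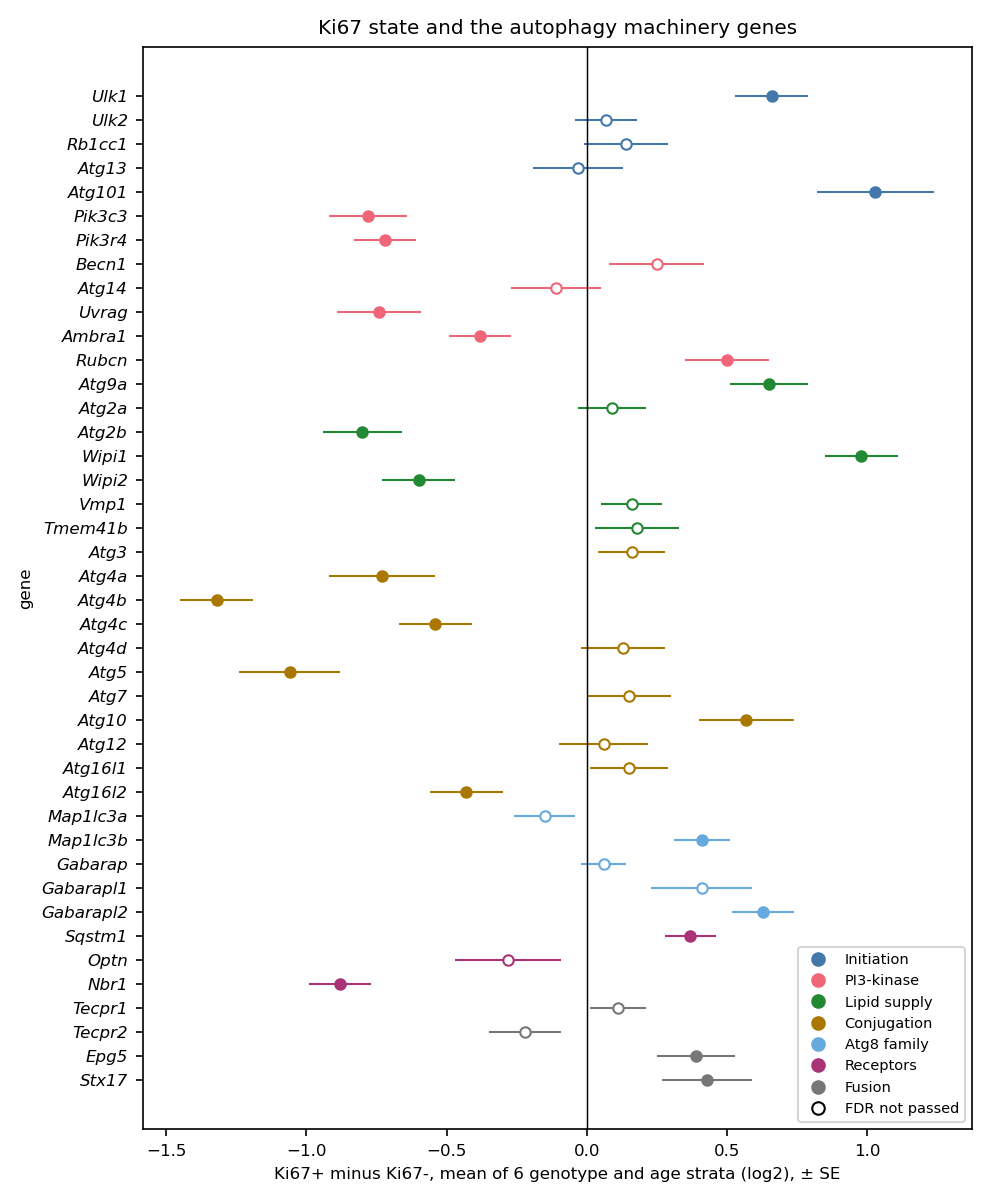
Points give the averaged log2 difference between Ki67+ and Ki67- microglia for the 42 tested genes, bars give 1 SE, colour gives the role and open points did not pass the FDR. Points lie on both sides of 0 in each of the 7 roles, from -1.32 for Atg4b to 1.03 for Atg101.

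Among the Atg8 genes, Gabarapl2 (GATE-16) and Map1lc3b (LC3B) were higher in Ki67+ microglia. Gabarapl2 ran from 9.49 to 11.69 (median 10.34) in Ki67+ and from 9.23 to 10.64 (median 9.81) in Ki67- libraries, a difference of 0.63 ± 0.11 (adjusted p = 3.10e-05). Map1lc3b ran from 11.02 to 12.45 and from 10.50 to 11.54, a difference of 0.41 ± 0.10 (adjusted p = 7.41e-04). Without the 6-month strata the Map1lc3b difference did not pass (adjusted p = 0.172). Gabarapl1 was positive in 6 of 6 strata at an average of 0.41 ± 0.18 and narrowly missed the threshold (adjusted p = 0.0516), which it passed when any of several single libraries was left out (lowest adjusted p = 0.0220). Gabarap and Map1lc3a gave 0.06 and -0.15. Of the fusion genes, Stx17, the SNARE of the autophagosome, and Epg5, a tether on late endosomes, were higher by 0.43 and 0.39 (adjusted p = 0.0217 and 0.0202). Both calls were fragile: subtracting each library's median gave adjusted p = 0.0862 for Stx17 and 0.0897 for Epg5. Stx17 also failed without the 12-month WT stratum (0.249) or without APP/PS1 6-month Ki67- library 1 (0.0580), and Epg5 without the 6-month strata (0.920). Tecpr1 and Tecpr2, which act in tethering to the lysosome, gave 0.11 and -0.22 and did not pass.

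Subtracting library medians moved the median of all genes in this comparison from 0.04 to -0.08, and 9 autophagy genes were then higher and 14 lower. The astrocyte marker lists had means of 8.77 and 8.64 in WT and APP/PS1 Ki67+ microglia at 6 months and 10.29 to 10.98 at 4 and 12 months, and the oligodendrocyte lists were highest at 6 months, at 11.61 and 12.71. The part of other cell types in the Ki67 differences was not tested.

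Within single strata the number of autophagy genes that passed varied with that of all genes. In 4-month WT mice 4 were higher and 7 lower (33.8% of all genes passed, in either direction). In 6-month WT mice 11 were higher and 6 lower (36.8%), and in 12-month WT mice 10 were higher and 9 lower (46.3%). APP/PS1 mice had 1 higher and 5 lower at 4 months (21.5% of all genes in either direction) and 1 lower at 6 months (7.81% in either direction). In 12-month APP/PS1 mice 7 autophagy genes, 16.7% of those tested, were lower and 0 higher, while 7.24% of all genes were lower and 10.6% higher (17.8% in all). At 12 months in WT mice 9 genes passed with the 3 Ki67- libraries counted as 1, and with library medians subtracted 5 were higher and 12 lower. In APP/PS1 mice at 12 months 3 to 8 genes passed when single libraries were left out, with the fewest without Ki67- library 1, and 4 without Ki67+ library 2, Ki67+ library 4 or Ki67- library 4. Of the 42 genes, 14 (33.3%) had the same sign in all 6 strata, 7 positive and 7 negative, against 39.1% of all tested genes. The 7 positive genes were Atg10, Atg101, Gabarapl1, Gabarapl2, Map1lc3b, Rubcn and Ulk1, and the 7 negative genes were Atg16l2, Atg2b, Atg4b, Atg5, Nbr1, Pik3r4 and Uvrag.

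Vmp1 and Atg4d passed in opposite directions in different strata. Vmp1, a scramblase of the endoplasmic reticulum needed for membrane growth, was 11.29 and 11.75 in 6-month WT Ki67+ libraries and 10.33, 10.03 and 9.25 in Ki67- libraries, a difference of 1.65 ± 0.31 (limma adjusted p = 1.72e-04). At 12 months it was 9.17, 9.15, 9.44 and 9.03 in WT Ki67+ and 10.50, 10.52 and 10.53 in Ki67- libraries, a difference of -1.32 ± 0.26 (adjusted p = 1.79e-04). The groups did not overlap at either age, which also held for 60.7% of all genes at 6 months and 79.0% at 12 months. With the 3 WT Ki67- libraries counted as 1 the 12-month difference of Vmp1 still passed (adjusted p = 0.0133). Atg4d was lower in APP/PS1 Ki67+ microglia at 4 months (-0.94) and higher in WT Ki67+ microglia at 12 months (1.05), a call that was lost with the 3 WT Ki67- libraries counted as 1 (adjusted p = 0.128) or without WT Ki67+ library 4 (0.0552).

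**Figure D3:**
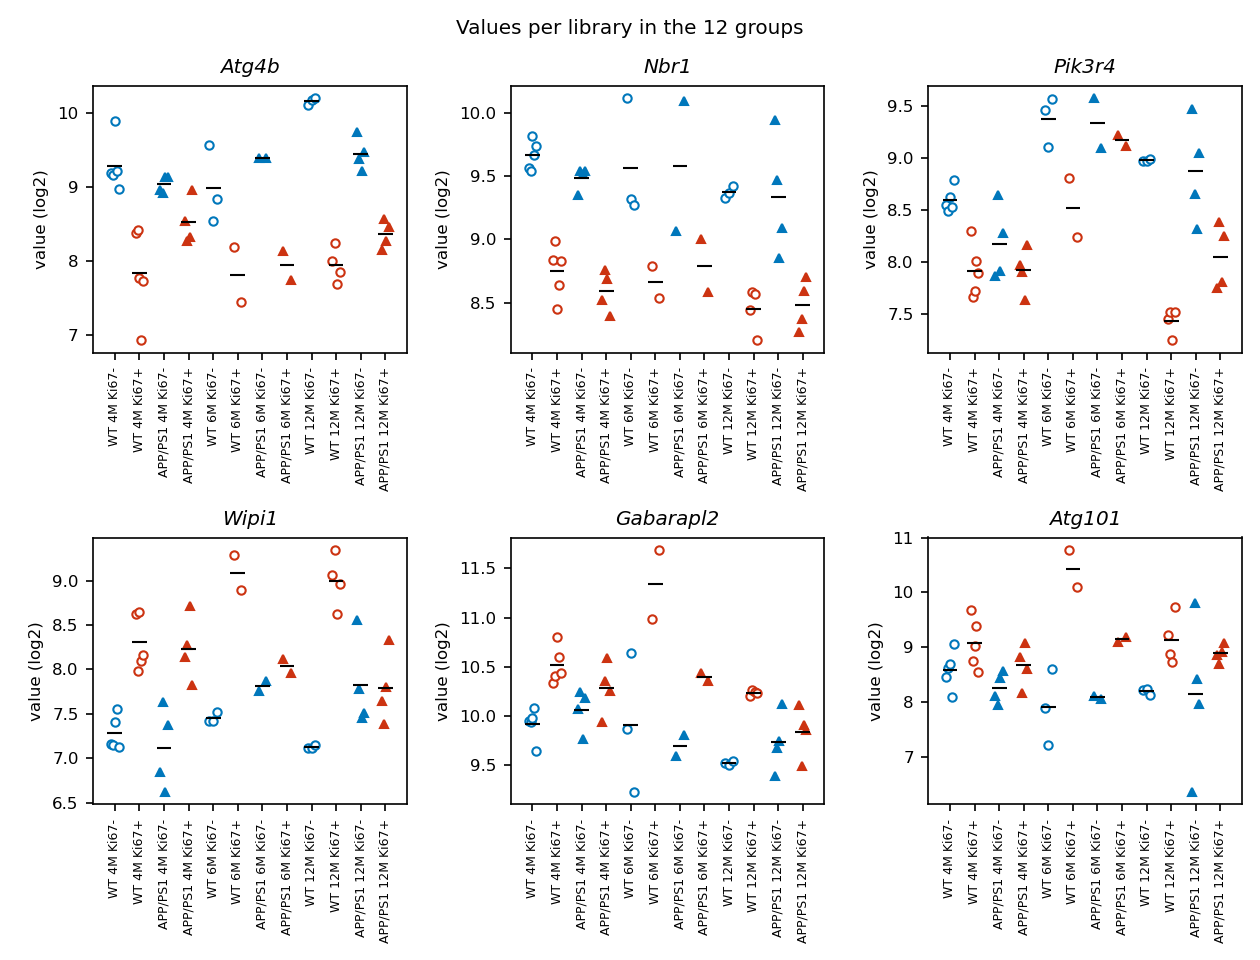
Each point is 1 library on the log2 scale, red for Ki67+ and blue for Ki67-, open circles for WT and filled triangles for APP/PS1, and lines are group means. Atg4b and Nbr1 have a lower Ki67+ mean at each age and genotype, while Wipi1 at 12 months separates the WT pools, 8.62 to 9.35 against 7.11 to 7.15, and not the APP/PS1 pools. At 12 months 79.0% of all genes separated the WT pools and 26.6% the APP/PS1 pools. The 12-month WT Ki67- libraries were nearly identical.

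The 6-month WT Ki67+ group stood out. It held the highest or lowest mean of the 12 groups for 20 of 42 autophagy genes (47.6%), 14 highest and 6 lowest, against 43.5% of all tested genes. Microglial markers were also lowest there, with a list mean of 12.44 against 13.22 to 13.80 in the other groups. Of the 8 markers, 7 were lower than in 6-month WT Ki67- libraries (36.8% of all genes passed in either direction). The oligodendrocyte lists of both 6-month Ki67+ groups lay above the 8.54 to 10.37 of the other groups. The part of these markers in the 6-month values was not tested. Atg101 was 10.78 and 10.09 in these 2 libraries against 7.90, 7.22 and 8.61 in Ki67- libraries, a difference of 2.53 ± 0.58 (adjusted p = 0.00133). Map1lc3b was 11.95 and 12.45 against 11.21, 10.62 and 10.59 (1.39 ± 0.28, adjusted p = 3.40e-04). Sqstm1 was 11.53 and 11.60 against 10.46, 10.39 and 10.40 (1.15 ± 0.24, adjusted p = 6.23e-04). Uvrag went the other way, with 7.85 and 7.74 against 9.47, 9.64 and 9.30 (-1.67 ± 0.42, adjusted p = 0.00260). The pools did not overlap for these 4 genes, as for 66.7% of the autophagy genes and 60.7% of all genes in this comparison of 2 with 3 libraries.

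Against 4-month WT Ki67+ microglia, the same group had 8 autophagy genes higher and 1 lower (of all genes, 9.76% were higher and 16.3% lower). Vmp1 rose by 1.67 ± 0.28 (adjusted p = 1.25e-04), Atg4a by 1.62, Rubcn by 1.37, Atg3, the enzyme that hands LC3 to its lipid, by 1.07, Ulk1 by 0.97, Map1lc3b by 0.84, Gabarapl2 by 0.82 and Gabarap by 0.65. Uvrag fell by 1.28. With 6-month WT Ki67+ library 2 left out only 2 genes passed, and with library 1 left out the calls of Rubcn (adjusted p = 0.194) and Uvrag (0.0567) were lost. With library medians subtracted 15 rose and 1 fell, and the median of all genes moved from -0.12 to 0.07. The shares of all genes that rose and fell in that fit were not counted. In APP/PS1 Ki67+ microglia 5 rose from 4 to 6 months and 0 fell (13.6% of all genes passed in either direction, not split by direction). Atg4d rose by 1.70, Atg4c by 1.29, Pik3r4 by 1.25, Vmp1 by 1.14 and Gabarap by 0.68. Leaving out APP/PS1 6-month Ki67+ library 1 or 2 left 2 genes or 1 gene. In Ki67- microglia 0 passed between 4 and 6 months in WT (0.134%) and APP/PS1 mice (0.181%) by limma, with 6 genes in each at an unadjusted p below 0.05. The share of all genes at this unadjusted level was not counted, so such counts are not read as a result.

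The second question was how APP/PS1 and WT microglia differed within each Ki67 state. At 4 months 0 autophagy genes passed by limma in Ki67+ microglia (0.0268% of all genes) or in Ki67- microglia (0% of all genes), with 6 and 1 at an unadjusted p below 0.05. The unadjusted counts in these comparisons were likewise not set against all genes. At 6 months 1 gene passed in Ki67+ microglia (9.87%), and 0 in Ki67- microglia (0.0604%), with 1 at an unadjusted p below 0.05. The single gene was Atg9a, at 7.89 and 8.14 in APP/PS1 against 9.32 and 9.74 in WT libraries, a difference of -1.52 ± 0.43 (adjusted p = 0.0221). This call was lost without either APP/PS1 library (adjusted p = 0.149 and 0.0595) or without WT Ki67+ library 2 (0.164). In the same comparison 6 of 8 microglial markers were higher in APP/PS1 libraries, with a median log2 difference of 1.35, and their part was not tested. Reads of Atg9a are partly ambiguous, since 32.4% of its 31-base words occur in other genes, more of them in the predicted gene Gm29253 than in any other.

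At 12 months 3 autophagy genes differed by genotype in Ki67+ microglia (9.77% of all genes passed; 7.14% of the autophagy genes). Wipi1 was 7.65, 7.39, 7.80 and 8.33 in APP/PS1 and 9.06, 9.35, 8.62 and 8.96 in WT libraries, lower by -1.21 ± 0.28 (adjusted p = 0.00755). Vmp1 was 10.10, 9.86, 9.98 and 10.12 against 9.17, 9.15, 9.44 and 9.03, higher by 0.82 ± 0.24 (adjusted p = 0.0295). Atg14 was 7.63, 6.85, 7.97 and 7.79 against 8.79, 9.04, 8.33 and 8.55, lower by -1.12 ± 0.36 (adjusted p = 0.0445). The groups did not overlap for any of the 3, as for 8 of the 42 autophagy genes in all, a smaller share than the 33.9% of all genes. Only Wipi1 stayed past the threshold whichever library was left out. Leaving out APP/PS1 Ki67+ library 1 or 4, or WT Ki67+ library 1 or 2, left 1 gene. Without WT Ki67+ library 4 the adjusted p was 0.0612 for Vmp1 and 0.0571 for Atg14, and without APP/PS1 Ki67+ library 2 it was 0.147 for Atg14. Among the marker lists, 2 of 5 astrocyte genes were lower here in APP/PS1 Ki67+ libraries, with list means of 10.29 and 10.98, and 1 of 8 microglial genes was higher and 2 were lower. Their part was not tested.

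In 12-month Ki67- microglia the APP/PS1 libraries had 7 autophagy genes higher and 2 lower than WT, 21.4% against 16.4% of all genes (8.71% higher and 7.72% lower). Tecpr1, a tether between autophagosomes and lysosomes on chromosome 5, 144194442 to 144223615, had the largest difference, 2.34 ± 0.23 (adjusted p = 2.18e-07). Its values were 9.64, 9.95, 9.91 and 9.72 in APP/PS1 and 7.49, 7.48 and 7.43 in WT libraries. The WT group stood apart, since the means of the other 11 groups lay between 8.98 and 9.81. Atg7, the enzyme that activates Atg12 and the Atg8 proteins, was 8.52, 9.43, 8.91 and 9.48 against 7.41, 7.35 and 7.27, a difference of 1.74 ± 0.35 (adjusted p = 0.00132). Atg4d (1.57), Stx17 (1.29), Wipi2 (0.99), Atg2a (0.88) and Sqstm1 (0.64) were higher as well. Epg5 and Pik3c3 were lower, by -1.18 ± 0.34 (adjusted p = 0.0165) and -1.04 ± 0.33 (adjusted p = 0.0315). Pik3c3 was 8.08, 8.71, 7.76 and 8.75 in APP/PS1 and 9.42, 9.39 and 9.31 in WT libraries.

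At 12 months 2 of 6 oligodendrocyte markers were higher and 1 of 5 astrocyte and 2 of 8 microglial markers were lower in APP/PS1 Ki67- libraries, and their part was not tested. Most of these calls rested on the nearly identical WT libraries. With the 3 counted as 1, Tecpr1 alone passed (adjusted p = 3.59e-04), while Atg7 had an adjusted p of 0.0804, Atg4d 0.101, Epg5 0.242 and Pik3c3 0.314. Leaving out any 1 of the 3 left 4 genes. The calls of Epg5 and Pik3c3 were also lost without APP/PS1 Ki67- library 3 (adjusted p = 0.0526 and 0.0885), and that of Pik3c3 without library 1 (0.0620). The 12-month WT Ki67- group held the highest or lowest mean for 19 of 42 autophagy genes (45.2%), 8 highest and 11 lowest, against 32.3% of all tested genes.

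**Figure D4:**
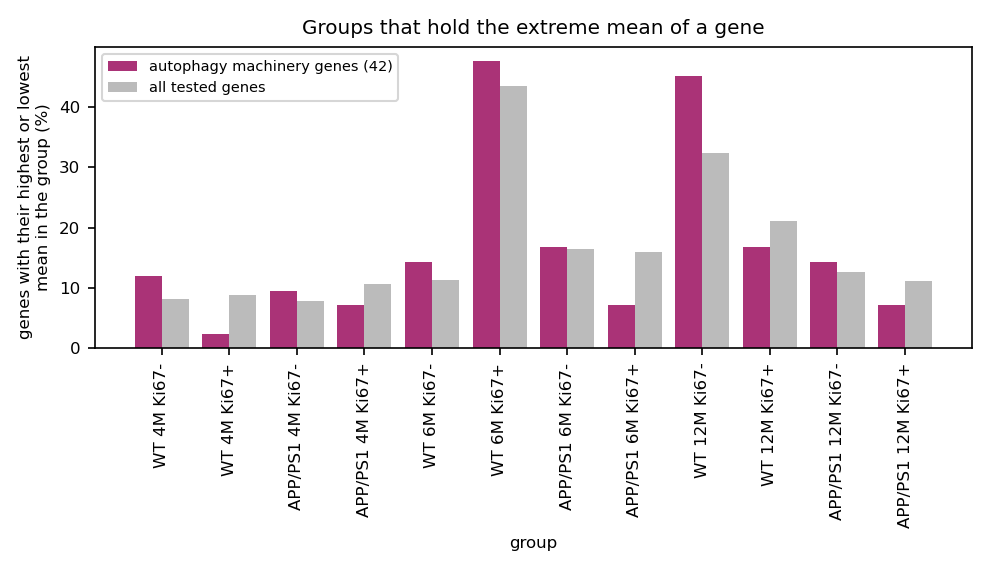
Bars give, for each of the 12 groups, the percentage of genes with their highest or lowest group mean there, for the 42 tested autophagy genes and for all 14910 tested genes. The bars of 6-month WT Ki67+ (47.6% and 43.5%) and 12-month WT Ki67- microglia (45.2% and 32.3%) are the tallest.

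The interaction of genotype with Ki67 state asked whether the APP/PS1 difference depended on Ki67. By limma 0 autophagy genes passed at 4 months (0% of all genes) and at 6 months (2.86%), with 5 and 4 at an unadjusted p below 0.05. Here and below, the share of all genes at this unadjusted level was not counted. At 12 months 7 passed (8.01% of all genes). The APP/PS1 difference was greater in Ki67+ than in Ki67- microglia for Pik3c3 (by 1.73 ± 0.45, adjusted p = 0.0199), Vmp1 (1.32) and Atg4c (1.27). It was smaller for Tecpr1 (-2.10 ± 0.32, adjusted p = 6.37e-04), Wipi1 (-1.90 ± 0.41, adjusted p = 0.00649), Atg4d (-1.46) and Atg2a (-1.35). For Pik3c3 the APP/PS1 difference was -1.04 in Ki67- and 0.68 in Ki67+ microglia, and for Wipi1 it was 0.70 and -1.21. Only Tecpr1 passed with the 3 WT Ki67- libraries counted as 1 (adjusted p = 0.0247), and leaving out any of those 3, or WT Ki67+ library 2, left 4 genes. Atg4c and Atg4d had an adjusted p of 0.0498, at the edge of the threshold. The APP/PS1 difference in Ki67+ microglia did not change between 6 and 12 months at the threshold for any of the 42 genes (2.20% of all genes passed), with 6 at an unadjusted p below 0.05 and 1 gene passing without APP/PS1 12-month Ki67- library 2.

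**Figure D5:**
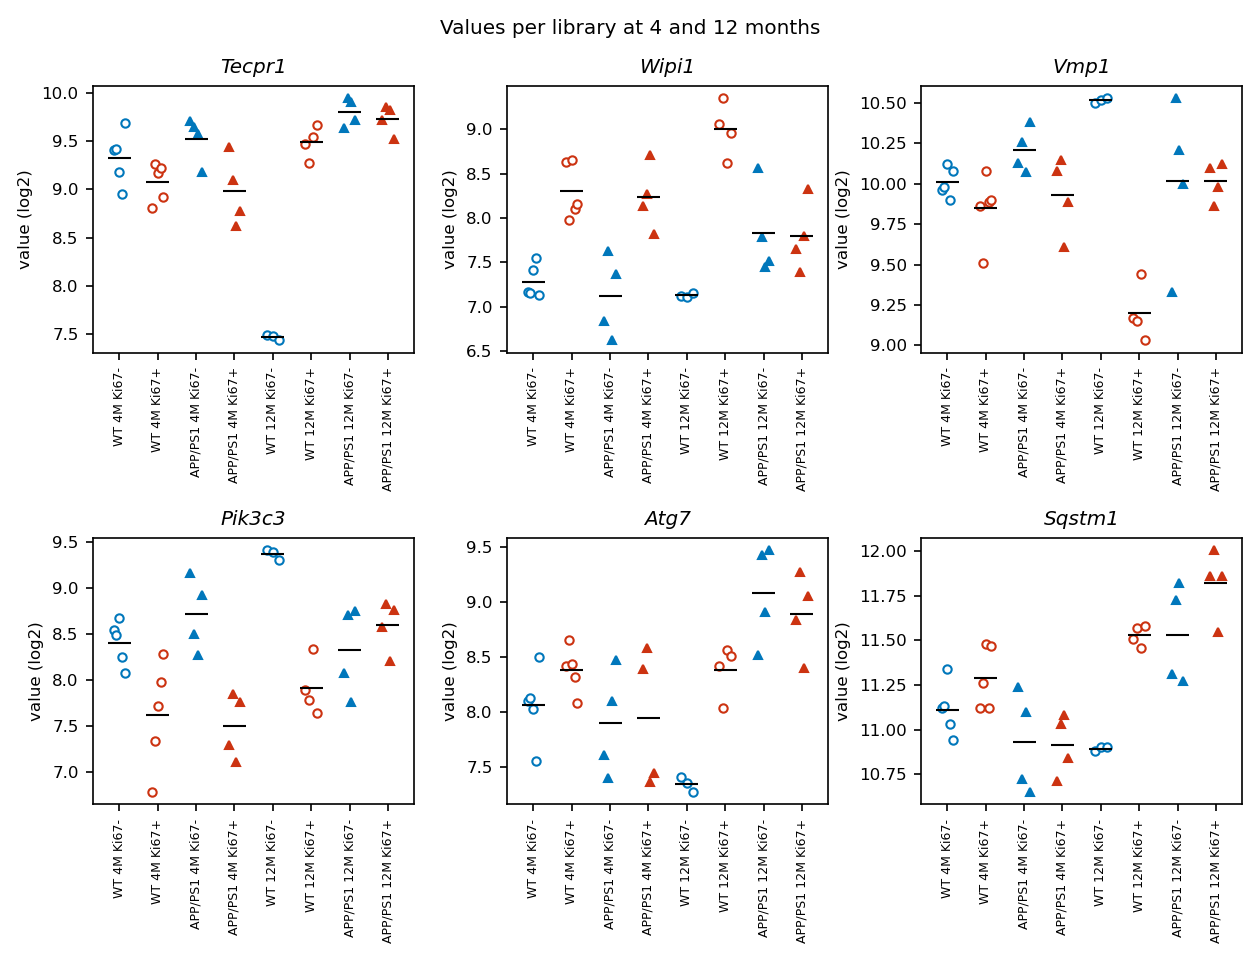
Each point is 1 library at 4 or 12 months on the log2 scale, red for Ki67+ and blue for Ki67-, open circles for WT and filled triangles for APP/PS1, with lines at group means. Tecpr1 drops to 7.43 to 7.49 in 12-month WT Ki67- libraries, and Sqstm1 reaches 11.55 to 12.01 in 12-month APP/PS1 Ki67+ libraries.

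From 4 to 12 months, WT Ki67- microglia had 3 autophagy genes higher and 6 lower (12.2% of all genes passed). Tecpr1 changed by -1.86 ± 0.22 (adjusted p = 1.12e-05), Wipi2 by -1.90, Stx17 by -1.46, Atg4d by -1.40, Ambra1 by -1.30 and Tecpr2 by -1.0. Atg12, Epg5 and Pik3c3 rose by 1.12, 1.06 and 0.97. Wipi2 was 10.25, 10.17, 9.85, 10.00 and 10.14 at 4 months and 8.22, 8.18 and 8.15 at 12 months. The ages did not overlap for it, as for 69.0% of the autophagy genes and 55.9% of all genes in this comparison. With the 3 libraries at 12 months counted as 1 only Tecpr1 passed (adjusted p = 0.0122), and Wipi2 had an adjusted p of 0.0567. Leaving out any 1 of the 3 left 5 genes, and with library medians subtracted 7 were higher and 6 lower. In WT Ki67+ microglia Atg4c alone passed, falling by 1.04 ± 0.26 (limma adjusted p = 0.0464, 0.993% of all genes). This call was lost without any 1 of the 4 libraries at 12 months (adjusted p up to 0.105) or without 4-month library 1, 3, 4 or 5. Microglial list means at 4 and 12 months were 13.70 and 13.50 in WT Ki67- and 13.63 and 13.25 in WT Ki67+ libraries. Their part was not tested.

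APP/PS1 microglia were compared across the same ages. In Ki67- microglia Atg7 rose by 1.19 ± 0.33 (adjusted p = 0.0347) and Ambra1 fell by 1.01 ± 0.24 (adjusted p = 0.0142) from 4 to 12 months (4.11% of all genes), and with library medians subtracted 3 rose and 1 fell. Ambra1 was 8.99, 8.71, 8.89 and 8.78 at 4 months and 7.75, 7.81, 7.64 and 8.12 at 12 months. The call of Atg7 was lost without library 2 or 4 at 12 months or library 1 or 2 at 4 months (adjusted p = 0.0827 to 0.0942). Leaving out 12-month library 1 gave 4 genes, and leaving out 12-month or 4-month library 2 gave 1. In Ki67+ microglia 4 genes rose and 0 fell (5.41% of all genes passed in either direction, not split by direction). Sqstm1 was 10.71, 11.03, 11.08 and 10.84 at 4 months and 11.86, 12.01, 11.55 and 11.86 at 12 months, a rise of 0.90 ± 0.19 (adjusted p = 0.00487) that passed whichever library was left out. Pik3c3 rose by 1.09, Tecpr1 by 0.75 and Gabarap by 0.65. Leaving out 12-month library 1 or 4-month library 3 left 1 gene, and leaving out 12-month library 2 or 4 left 2. Microglial list means at 4 and 12 months were 13.68 and 13.34 in APP/PS1 Ki67- libraries. In APP/PS1 Ki67+ libraries they were 13.71 (13.66 to 13.85) and 13.22 (13.09 to 13.36). The part of these markers in the age differences was not tested.

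Among 46 other genes of the pathway, all tested, 14 were higher and 13 lower in Ki67+ microglia on average, 58.7% against 64.2% of all genes (34.5% higher and 29.7% lower). Upstream regulators had 4 higher and 8 lower of 17, and further receptors 6 higher and 1 lower of 9. The lowest p-values belonged to Vps41, a subunit of the HOPS tether of lysosomes (1.16 ± 0.13, adjusted p = 3.21e-08), Wdr45b, a relative of the Wipi proteins (1.06 ± 0.13, adjusted p = 5.77e-08), Tax1bp1, a receptor related to Calcoco2 (-1.04 ± 0.13, adjusted p = 1.58e-07), and Akt1s1, an mTORC1 subunit (-0.82 ± 0.12, adjusted p = 7.59e-07). By genotype in Ki67+ microglia 3 of the 46 passed at 6 months and 3 at 12 months, 6.52% each time, below the 9.87% and 9.77% of all genes. Tfe3, a transcription factor of lysosome genes, and Akt1s1 were higher in APP/PS1 mice at 6 months by 1.33 and 1.34, and Ncoa4, the receptor for ferritin, was lower by -1.37. Each lost its call without APP/PS1 6-month Ki67+ library 1 or WT Ki67+ library 2, and Tfe3 and Ncoa4 also without APP/PS1 library 2. At 12 months Flcn, folliculin, and Rheb, the activator of mTORC1, were lower by -1.01 ± 0.23 and -0.73 ± 0.21. The call of Rheb was lost without APP/PS1 Ki67+ library 2 or 4 or WT Ki67+ library 1 or 3, with adjusted p-values from 0.0572 to 0.0936, while that of Flcn (adjusted p = 0.00673) held in each case.

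Of the 46 genes, 5 were higher and 3 lower with APP/PS1 in 12-month Ki67- microglia, 17.4% in all and close to the 16.4% of all genes. Vps41 and Rragc, a GTPase of the mTORC1 pathway, were higher by 1.35 and 1.36, and Wdfy3, a scaffold of selective autophagy, and Ncoa4 were lower by -1.37 and -1.14. None of these 4 passed with the 3 WT libraries counted as 1, with adjusted p-values from 0.0775 to 0.243, and Ncoa4 also failed without WT library 3 (0.0554).

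Promoters were read to see whether the genes share the site of TFEB, the main transcription factor of lysosome and autophagy genes. RefSeq promoters (250 bases before to 50 after the gene start, GRCm38.p6) were matched for 36 of the 44 genes. The full CLEAR motif, which is TCACGTGA with a G before and a C after it, occurred in 0 of the 36, against 0.370% of 27025 genes, and TCACGTGA without these outer bases in 1 (2.78% against 1.12%). The E-box core CACGTG, which both of these contain, lay in 5, Atg14, Atg3, Atg5, Atg7 and Rubcn (13.9% against 8.09%). Matches among the 36 were too few for these shares to be read as differences from all genes. All 3 motifs read the same on both strands. The inner part lay in the promoter of Atg3, starting 72 bases before its RefSeq start. GENCODE places the start of this gene nearer to the motif, at 45158785. The window, chr16:45158746-45158775 on the plus strand, is shown with the motif in capitals because it is the only such match.
Atg3: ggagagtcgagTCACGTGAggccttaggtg
Atg3 did not pass in the averaged Ki67 comparison (0.16 ± 0.12, adjusted p = 0.252), and the 5 genes with the core were lower (Atg5), higher (Rubcn) or did not pass (Atg14, Atg3 and Atg7) there.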

How the data were processed

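RNA-seq was made from up to 400 sorted microglia per library (42 libraries). The deposited values are log2-scale scores: per the labels and methods, the authors converted reads with bcl2fastq 2.20, quantified them with kallisto 0.43.1 on GRCm38, normalised with DESeq2 and removed 10 surrogate variables while protecting the groups. This removal reduces the spread within groups. They are not counts, so the count model of the methods was not used, depth is unknown and no counting interval can be given. The table had a rank of 32 for 42 libraries, and residual degrees of freedom were therefore set to 20, the rank of the deviations from group means.

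The 12 group means were fitted with limma 3.58.1 in R 4.3.3 (empirical Bayes, Benjamini-Hochberg adjustment, FDR 0.05). The 14910 genes whose mean reached 7 in 1 or more groups were tested, and 4241 were left out. 25 comparisons were made: Ki67 averaged and in 6 strata, genotype in 6, interactions at 3 ages, 1 change of a genotype difference between ages and 8 between ages. Tables were prepared and figures drawn in Python 3.11.15 with matplotlib 3.10.9. The fit was tested on simulated data. Shared 31-base words were computed from GENCODE transcripts, which also gave the coordinates. No library pair was identical. Alternatives were other filters, scalings, variance settings, ages alone and each library left out.

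The members and lists were chosen with earlier results of these data known. Full statistics were given for the 2 genes of each role with the lowest p in the averaged Ki67 comparison, up to 3 per direction in each other comparison, and up to 2 per direction of the other pathway genes. Chosen after their values were seen were the averaged statistics of Wipi2, Optn, Atg10, Rubcn, Gabarapl1, Atg2a, Atg3 and Atg4d, and those of Atg101 at 6 months and of Vmp1 and Atg4d in WT mice at 12 months.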

Additional observations from a re-analysis of the deposited data

Results flagged for a closer look

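In groups of 4 or 5 libraries, 8 of 210 checks (3.81%) found 1 library far from the rest of its group. Chance alone gives about 1 in 20 for independent libraries. That rate need not hold here, since some libraries were nearly identical and surrogate variables had been removed. Ambra1 was 7.42 in APP/PS1 12-month Ki67+ library 2 against 7.98 to 8.01 in the others, and Ulk1 was 9.26 in library 4 of that group against 8.67 to 8.76. In WT 4-month Ki67- microglia Atg3 was 9.82 in library 4 (others 9.35 to 9.45), Atg4b 9.89 in library 3 (8.97 to 9.21) and Stx17 8.69 in library 5 (7.82 to 8.01). In APP/PS1 4-month Ki67- microglia Nbr1 was 9.35 in library 1 (9.52 to 9.54) and Stx17 9.0 in library 4 (7.90 to 7.95). Wipi2 was 7.87 in WT 4-month Ki67+ library 1 against 8.53 to 8.79.

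At 12 months the APP/PS1 difference in Ki67+ microglia minus that in Ki67- microglia passed the interaction test of limma for 7 genes. On the log2 scale it was -2.10 for Tecpr1, -1.90 for Wipi1, -1.46 for Atg4d, -1.35 for Atg2a, 1.27 for Atg4c, 1.32 for Vmp1 and 1.73 for Pik3c3. With the 3 nearly identical WT Ki67- libraries counted as 1, Tecpr1 passed (adjusted p = 0.0247), and Wipi1 (0.0882), Pik3c3 (0.156), Vmp1 (0.163), Atg2a (0.199) and Atg4c (0.247) did not.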

How the results depend on the processing

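No paired analysis was possible because the labels carry no replicate numbers shared between groups. No named result that passed its test changed direction. Of those that did not pass, the averaged Ki67 difference of Atg2a turned to -0.03 with library medians subtracted and -0.19 without the WT 12-month stratum, that of Atg4d to -0.06 without that stratum and -0.14 without the 6-month strata, and that of Atg3 to -0.12 without the 6-month strata. Across 4116 refits of named results with 1 library left out, 3990 kept their side of the threshold, 109 lost a call and 17, all of Gabarapl1, gained it. Counts of autophagy genes passed are given below for the alternatives that moved them by more than 1.5 times, and the cause was not tested unless an alternative has fewer libraries by construction. Shares of all genes were not counted for the alternatives, so a moved count cannot be set against that of all genes. Chosen after seeing the data, counting the 3 WT 12-month Ki67- libraries as 1 gave 9 for Ki67 in WT mice at 12 months, and 1 each for genotype in Ki67- microglia at 12 months, the 12-month interaction and WT Ki67- microglia from 4 to 12 months. Also added after seeing the data, counting WT 4-month Ki67- libraries 1 and 2 as 1, or leaving out the 6-month strata or the WT 12-month stratum, moved no count that far.

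Fits to the ages compared alone gave 2 for Ki67 in APP/PS1 mice at 6 months, 2 and 10 for genotype in Ki67+ microglia at 6 and 12 months, 16 for genotype in Ki67- microglia at 12 months, 11 for the 12-month interaction and 3 for the change of the Ki67+ genotype difference from 6 to 12 months. From 4 to 12 months they gave 14 in WT Ki67-, 2 in WT Ki67+ and 4 in APP/PS1 Ki67- microglia, and from 4 to 6 months 3, 17 and 1 in WT Ki67-, WT Ki67+ and APP/PS1 Ki67- microglia. Subtracting library medians gave 1 for the 6-month interaction, 4 for APP/PS1 Ki67- microglia from 4 to 12 months and 16 for WT Ki67+ microglia from 4 to 6 months. Without the filter the counts were 3 for genotype in Ki67+ microglia at 6 months, 1 for the 6-month interaction and 4 for APP/PS1 Ki67- microglia from 4 to 12 months. A trended, robust variance gave 2 for Ki67 in APP/PS1 mice at 6 months, 1 for the 6-month interaction, and 0 and 4 for WT Ki67+ and APP/PS1 Ki67- microglia from 4 to 12 months. Ignoring the removed directions (30 residual degrees of freedom) gave 11 and 8 for Ki67 in APP/PS1 mice at 4 and 6 months, 6 and 7 for genotype in Ki67+ microglia at 6 and 12 months, 18 in Ki67- microglia at 12 months, 3 for the 6-month interaction and 5 for the change from 6 to 12 months. From 4 to 12 months it gave 16, 4, 8 and 7 in WT Ki67-, WT Ki67+, APP/PS1 Ki67- and APP/PS1 Ki67+ microglia, and from 4 to 6 months 3, 18, 1 and 9 in WT Ki67-, WT Ki67+, APP/PS1 Ki67- and APP/PS1 Ki67+ microglia.

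With each library left out in turn, counts ran from 0 to 3 for Ki67 in APP/PS1 mice at 6 months (0 without either Ki67+ library or Ki67- library 1), 3 to 8 at 12 months, 0 to 2 and 1 to 4 for genotype in Ki67+ microglia at 6 and 12 months, 4 to 12 in Ki67- microglia at 12 months, 4 to 8 for the 12-month interaction and 0 to 1 for the change from 6 to 12 months. From 4 to 12 months they ran from 5 to 13, 0 to 1, 1 to 4 and 1 to 5 in WT Ki67-, WT Ki67+, APP/PS1 Ki67- and APP/PS1 Ki67+ microglia, and from 4 to 6 months from 2 to 12 and 1 to 6 in WT and APP/PS1 Ki67+ microglia. Groups of 2 libraries leave 1, assumed to vary like the other groups. The averaged Ki67 count stayed at 23 to 24.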
